A study of Mus musculus with 9 samples.

Results

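The comparison described here is that of detained introns after 2 h with KH-CB19 against detained introns at the moment KH-CB19 was added (0 h), in v6.5 mouse embryonic stem cells. Detained introns are introns that remain in polyadenylated transcripts after the rest of the transcript has been spliced. An intron belonged to the comparison if the deposited table held a number for it in both KH-CB19 groups: 3423 introns of 2409 genes did, of 3454 introns with 2 h means and 22228 introns in all. Of the 3423, 2240 introns of 1706 genes had a mean of at least 50 reads at 0 h or at 2 h and were ranked, and only these are counted below unless stated.

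The libraries were strand-specific and made from RNA selected on oligo-dT beads. KH-CB19, dissolved in dimethyl sulfoxide (DMSO), was added at a concentration the labels give as 10 mM, a unit that may be a misprint and could not be checked here, and control cells received an equal volume of DMSO, so the solvent was common to all groups. The 4 groups were KH-CB19 at 0 h, KH-CB19 at 2 h, DMSO at 0 h and DMSO at 2 h, each with 2 libraries described as independent biological replicates of the same cell line. All cells were grown in serum with ESGRO on gelatinized flasks.

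KH-CB19 inhibits Clk kinases, which phosphorylate the SR proteins, splicing factors with a domain rich in arginine and serine that help the spliceosome recognise exons. Several genes of this system control their own output through splicing. Skipping of an exon of Clk1 gives a truncated protein without kinase activity, and many SR protein genes carry exons whose inclusion brings in a premature stop codon and sends the transcript to nonsense-mediated decay, the pathway that destroys such transcripts.

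Introns beside 1 homologous exon of Clk1 and Clk4 made up 4 of the 7 lowest values of the comparison, so their sequences are shown first. The exon is 91 bases long in both genes and is exon 4 of the annotated transcript in each. It lies at chr1:58420121-58420211 on the minus strand for Clk1 and at chr11:51273078-51273168 on the plus strand for Clk4 (GRCm38, sequences from GENCODE M21 transcripts). The exons are identical at 85 of the 91 bases, and capitals mark the bases that differ.
Clk1 exon: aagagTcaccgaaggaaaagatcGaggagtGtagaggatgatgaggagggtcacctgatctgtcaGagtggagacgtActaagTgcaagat
Clk4 exon: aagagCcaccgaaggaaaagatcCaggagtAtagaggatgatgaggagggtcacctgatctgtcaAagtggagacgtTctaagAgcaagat

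Each exon is flanked by a detained intron on both sides, and the intron numbers used here are those of the deposited table. In the lines that follow, capitals mark intron bases and lower case marks the last or first 3 exon bases. The first 6 bases of the upstream introns were the same in both genes, as were those of the downstream introns. Compared position by position without gaps, the last 20 intron bases matched at 10 positions in each pair. That count misses letters that are shared at shifted positions, such as GCCCACTTG near the 3′ end of both upstream introns.
Clk1 intron 5, 5′ end: gggGTATGA
Clk4 intron 7, 5′ end: tcgGTATGA
Clk1 intron 7, 5′ end: gatGTATAG
Clk4 intron 10, 5′ end: gatGTATAG
Clk1 intron 5, 3′ end: CGCCCACTTGACGTGTCCAGaag
Clk4 intron 7, 3′ end: CTGCCCACTTGCCGTTCCAGaag
Clk1 intron 7, 3′ end: TAATTATTCCTCTTTTTTAGatg
Clk4 intron 10, 3′ end: CTTTCTCTCCCTTACTTTAGatg

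Each of these beginnings made up a small share of the detained introns that could be read, as did most 6-base starts. The commonest start was GTGAGT (72 introns, 14.06%). Of 512 introns whose letters were available, 6 (1.17%) began with GTATGA and 3 (0.59%) with GTATAG, against 49 (9.57%) with GTAAGT, the letters that pair best with U1 snRNA. The count includes the introns of Clk1 and Clk4 themselves, and matches were taken on the transcribed strand only.

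Over the 2240 ranked introns, 136 (6.07%) in 125 genes were at least 2-fold higher at 2 h than at 0 h and 67 (2.99%) in 64 genes at least 2-fold lower, 203 (9.06%) in all. Ratios are the log2 of the 2 h over the 0 h mean, centred on the median over all introns with both means, because the authors scaled the 2 h means and not the 0 h means. The ranked introns had a median of 0.07 and ran from −3.15, an 8.86-fold lower level, to 2.95, a 7.73-fold higher one, with 90% of them between −0.84 and 1.06. Centred instead on the ranked introns alone, 110 were higher and 89 lower, and centred on the ratio of summed means 103 and 95, so that higher introns made up 67.0%, 55.3% and 52.0% of those past 2-fold under the 3 choices. The read minimum bears on the split as well: with no minimum, 164 of the 3423 introns were higher and 156 lower. The 2 other centrings moved every value by −0.07 and −0.10 respectively.

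Time in culture with DMSO alone left far fewer introns past 2-fold. Of 2440 introns ranked by the same rule in DMSO, 1 (0.041%) was higher and 5 (0.205%) were lower, 6 (0.246%) in all. The SD across introns was 0.26 against 0.60 in KH-CB19. Among the 2137 introns ranked in both treatments, the KH-CB19 value minus the DMSO value was at least 1 on the log2 scale for 135 (6.32%) and at most −1 for 80 (3.74%), 215 (10.1%) in all. The values of the 2 treatments, which share no library, had a Pearson r of 0.013 and a Spearman rho of 0.013 over these 2137 introns, which are not independent replicates.

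**Figure D1:**
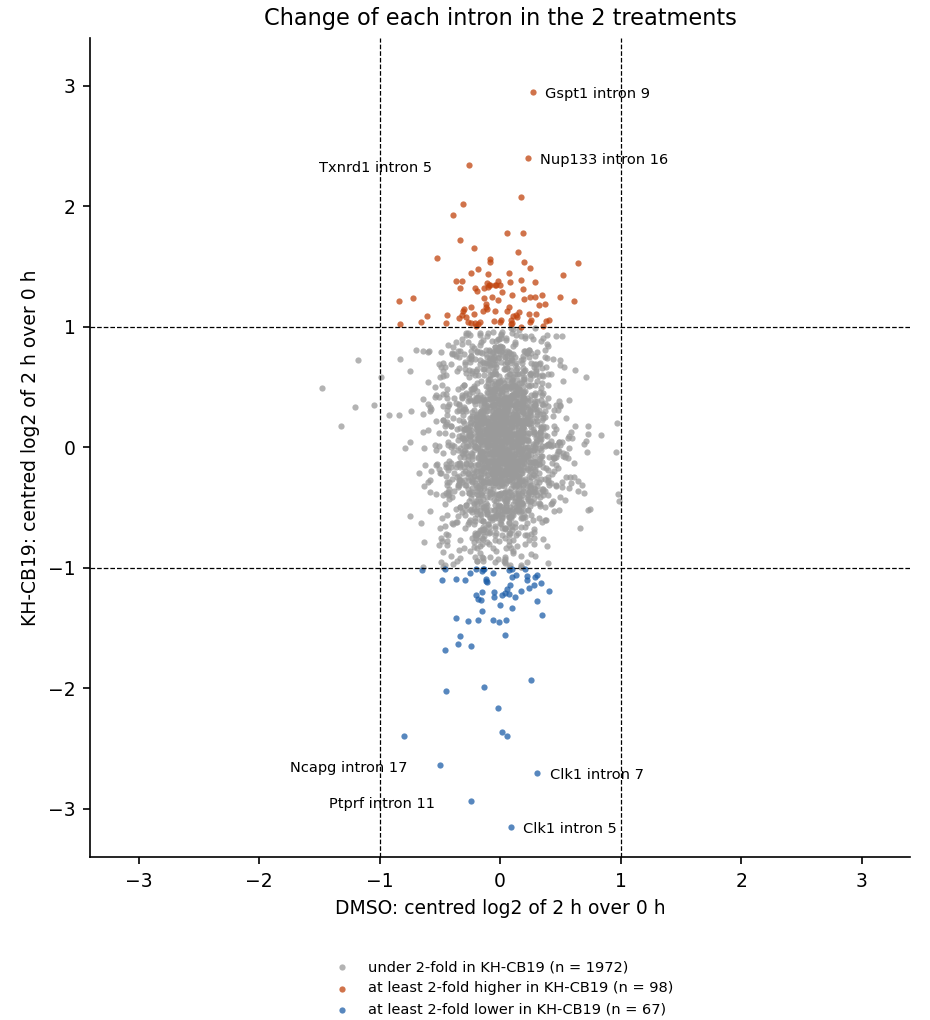
Each point is 1 of the 2137 introns ranked in both treatments, with its centred log2 ratio of 2 h over 0 h in DMSO on the horizontal axis and in KH-CB19 on the vertical axis; dashed lines mark 2-fold. The cloud is taller than it is wide, and the 98 introns at least 2-fold higher and the 67 at least 2-fold lower in KH-CB19 have DMSO ratios of only −0.84 to 0.65 and −0.80 to 0.41.

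No test of time was possible, since the 0 h values were means of 2 libraries that could not be taken apart. The 2 h means could be split into their 2 libraries, which carry no replicate number. At 2 h, the 2 KH-CB19 libraries differed by a median of 0.23 on the log2 scale over the ranked introns, and 34 introns (1.52%) differed by 2-fold or more. The 2 DMSO libraries differed by a median of 0.15. All 136 higher introns had both KH-CB19 libraries above 0. All 67 lower introns had both below 0, but that was fixed in advance. When the mean of 2 libraries is at least 2-fold below the 0 h level, neither library can exceed that level. Both libraries were past 2-fold in 90 of the higher and 40 of the lower introns.

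Intervals beside single introns are exact 95% counting intervals of the centred ratio (Clopper-Pearson), which cover the sampling of reads and not the spread between cultures. They lay wholly beyond 2-fold for 60 higher and 23 lower introns. They excluded 0 for all 203, which follows largely from the 2-fold threshold and the read minimum and is no further support. In DMSO 4 of the 6 introns past 2-fold, all lower, had an interval, and it lay wholly beyond 2-fold for 0 of them.

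The lowest value of all belonged to a kinase gene, Clk1. Intron 5 of Clk1 (mm9 chr1:58477056-58477926, between coding exons) held a mean of 364.5 reads at 0 h, and 38.7 and 44.6 normalised reads in the 2 libraries at 2 h. Its centred ratio was −3.15 (interval −3.50 to −2.81). In DMSO, where the mean was 579.0 at 0 h and the libraries held 509 and 476 at 2 h, the ratio was 0.09, and neither DMSO library came near the KH-CB19 ones.

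Intron 7 of Clk1 (chr1:58476578-58476964), on the other side of the exon shown above, had a mean of 112.0 reads at 0 h and 18.3 and 16.6 at 2 h. Its ratio was −2.70 (interval −3.26 to −2.17), against 0.31 in DMSO. Intron 11 of the same gene, which does not touch that exon, stood nearer to 0, with a mean of 385.0 reads at 0 h, 256 and 288 at 2 h and a ratio of −0.52 (interval −0.68 to −0.36). The intervals of intron 11 and of introns 5 and 7 did not overlap.

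Clk4, the closest relative of Clk1 among these kinases, repeated the arrangement. Intron 7 (chr11:51085525-51086579) went from a mean of 150.5 reads to 29.5 and 28.0, with a ratio of −2.40 (interval −2.84 to −1.99). Intron 10 (chr11:51086671-51087061) went from 62.5 to 10.2 and 14.5, with a ratio of −2.36 (interval −3.05 to −1.72). The DMSO ratios of the 2 introns were 0.06 and 0.02. Intron 6 was annotated in a transcript subject to nonsense-mediated decay and in no protein-coding transcript. It missed the read minimum with a mean of 49.0 at 0 h and had a ratio of −1.54 (interval −2.16 to −0.96).

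The other Clk genes stayed under 2-fold. Clk2 had ratios of −0.90 in intron 4 (interval −1.34 to −0.47) and −0.26 in intron 7 (interval −0.65 to 0.12), and the 2 libraries at 2 h stood further apart in intron 7 (70.3 and 39.4 reads) than in intron 4 (31.6 and 39.4). Clk3 had a ratio of 0.38 in intron 3, with a mean of 118.5 reads at 0 h and 178 and 134 at 2 h. The remaining ranked intron of the kinase list belonged to Srpk1, a kinase of SR proteins outside the Clk family, and stood at 0.61. Over the 9 ranked introns of Clk, Srpk, Dyrk and related kinase genes the median was −0.90, with 4 at least 2-fold lower and 0 higher.

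SR protein genes, whose products these kinases phosphorylate, held 4 lower introns and 1 higher among 10 ranked, with a median of −0.32. Intron 6 of Srsf7 (mm9 chr17:80604422-80604601) had a mean of 191.0 reads at 0 h and 46.9 and 39.4 at 2 h. Its ratio was −2.16 (interval −2.52 to −1.82), while DMSO stood at −0.02 with 234 and 261 reads at 2 h against 311.5 at 0 h. Intron 8 of Srsf7 had a ratio of −1.03 (interval −1.34 to −0.74), and −0.98 with the higher of its 2 h libraries alone. Both introns border a 460-base exon. Each intron was annotated in a transcript subject to nonsense-mediated decay and in no protein-coding transcript.

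Srsf3 and Srsf5 each had 1 intron that was lower and 1 that was near 0. Intron 5 of Srsf3 was also annotated in a transcript subject to nonsense-mediated decay and in no protein-coding transcript. It had a mean of 361.0 reads at 0 h and 170 and 152 at 2 h, a ratio of −1.18. Intron 7 of Srsf3 had a ratio of 0.04. Intron 9 of Srsf5 had a mean of 136.0 reads at 0 h and 44.8 and 72.5 at 2 h, a ratio of −1.23, whereas its intron 12 had one of 0.15. With the higher library alone, intron 9 of Srsf5 was at −0.92, under 2-fold. In both genes the counting intervals of the 2 introns were apart. Intron 4 of Srsf6 stood at −0.68.

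Introns of Srsf11 and Srsf1 stood above 0. Srsf11 had ratios of 0.38 and 0.47, under 2-fold, and Srsf1 the only higher intron of the list. Its intron 3 (mm9 chr11:87862718-87862913, between coding exons) had a mean of 121.5 reads at 0 h and 342 and 283 at 2 h, a ratio of 1.35 (interval 1.13 to 1.57), against −0.04 in DMSO. The introns of Srsf7 and Srsf1 with the largest values are short enough to print whole, to show the lowest and the highest value of this family beside each other. Capitals mark the first 6 and the last 20 bases. The Srsf7 intron has 180 bases and a GC content of 25%, and the Srsf1 intron 196 bases and 38.3% (GENCODE M21, GRCm38 chr17:80205082-80205261 and chr11:88049216-88049411).
Srsf7 intron 6: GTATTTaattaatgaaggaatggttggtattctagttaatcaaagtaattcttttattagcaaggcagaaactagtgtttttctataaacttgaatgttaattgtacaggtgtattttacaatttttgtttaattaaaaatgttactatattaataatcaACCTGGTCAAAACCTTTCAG
Srsf1 intron 3: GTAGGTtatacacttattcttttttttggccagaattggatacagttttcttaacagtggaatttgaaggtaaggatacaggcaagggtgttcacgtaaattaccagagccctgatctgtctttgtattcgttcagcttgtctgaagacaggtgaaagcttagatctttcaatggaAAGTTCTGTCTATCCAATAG

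Beyond the kinases and SR proteins, the 12 lowest introns (1 per gene) came from genes with varied roles. Intron 11 of Ptprf, a receptor tyrosine phosphatase, had a mean of 105.5 reads at 0 h and 13.2 and 14.5 at 2 h, a ratio of −2.94 (interval −3.58 to −2.36) against −0.24 in DMSO. Intron 17 of Ncapg, a condensin subunit, went from 57.0 to 10.2 and 8.29 reads, a ratio of −2.64, and DMSO was also below 0 there at −0.50. Intron 16 of 4930447C04Rik stood at −2.40 in KH-CB19 and −0.80 in DMSO.

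The other 6 were Sptlc2 intron 7 (−2.02), Mtpap intron 8 (−1.99), Clcn3 intron 11 (−1.93), Hcfc1 intron 29 (−1.68), Mapre1 intron 4 (−1.65) and Rbm25 intron 27 (−1.63). They encode a subunit of serine palmitoyltransferase, the mitochondrial poly(A) polymerase, a chloride transporter, a chromatin cofactor, a protein of microtubule ends and a splicing regulator. DMSO values were also below 0, with intervals that excluded 0, in Hcfc1 (−0.46), Sptlc2 (−0.45) and Rbm25 (−0.35), as in Ncapg and 4930447C04Rik, so 5 of the 12 lowest introns were lower in DMSO too, each by less than 2-fold. In Mapre1 the 2 h libraries held 10.2 and 25.9 reads against a mean of 56.0 at 0 h, a gap of more than 2-fold between libraries. The ratio was −2.48 or −1.13 with either library alone. In the other 11 of the 12 lowest introns the 2 h libraries were less than 2-fold apart.

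The highest value belonged to intron 9 of Gspt1 (mm9 chr16:11235537-11237623, between coding exons), which encodes the translation termination factor eRF3a. It had a mean of 38.5 reads at 0 h and 280 and 322 at 2 h, a ratio of 2.95 (interval 2.61 to 3.31). In DMSO the mean was 66.0 at 0 h and the 2 h libraries held 65.7 and 61.5, a ratio of 0.27. The KH-CB19 libraries at 2 h were thus several times above every other value of this intron.

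Nuclear pore genes supplied further high values. Intron 16 of Nup133, a subunit of the pore scaffold, went from a mean of 36.0 reads to 164 and 220, a ratio of 2.40 (interval 2.03 to 2.78). Intron 59 of Tpr, a filament protein of the nuclear basket, went from 53.5 to 236 and 223, a ratio of 2.08 (interval 1.78 to 2.40). The neighbouring intron 57 of Tpr, chosen after its value was seen, stood at −0.29 (interval −0.73 to 0.14).

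Among the 12 highest introns (1 per gene), several started from few reads. Intron 21 of Kdm3a, a histone H3K9 demethylase, had a mean of 19 reads at 0 h and 87.6 and 116 at 2 h (ratio 2.40). Intron 66 of Huwe1, a ubiquitin ligase, had 18.0 and then 109 and 68.4 (2.28). Its DMSO ratio was also above 0, at 0.63 (interval 0.08 to 1.19). Intron 12 of Tdp1, which repairs topoisomerase lesions in DNA, had 12 and then 52.0 and 54.9 (2.14, interval 1.49 to 2.84). Tdp1 was below the read minimum in DMSO, with a mean of 25.5 at 0 h, and its ratio there was −1.01. Intron 10 of Kif2a, a kinesin that shortens microtubules, had a ratio of 2.1 from a mean of 20.5 reads at 0 h. Like Tdp1, the introns of Kdm3a, Huwe1 and Kif2a were below the read minimum in DMSO. So were those of Armc9 and Got1l1, given next, and none of these introns had a ranked DMSO reference.

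The other 5 of these 12 included genes with more reads at 0 h. Intron 5 of Txnrd1, a thioredoxin reductase, had a mean of 52.0 reads at 0 h and 206 and 326 at 2 h (ratio 2.34). Intron 3 of Sec24b, a component of the COPII vesicle coat, had 73.5 and then 288 and 315 (2.02), and intron 10 of Nsun2, an RNA methyltransferase, 77.5 and then 307 and 292 (1.93). Intron 8 of Armc9 stood at 1.88 and intron 6 of Got1l1 at 1.87. Got1l1 had the widest gap between libraries of these 12, with 111 and 47.7 reads at 2 h against a mean of 21.5 at 0 h, and ratios of 2.35 and 1.13 with either library alone.

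**Figure D2:**
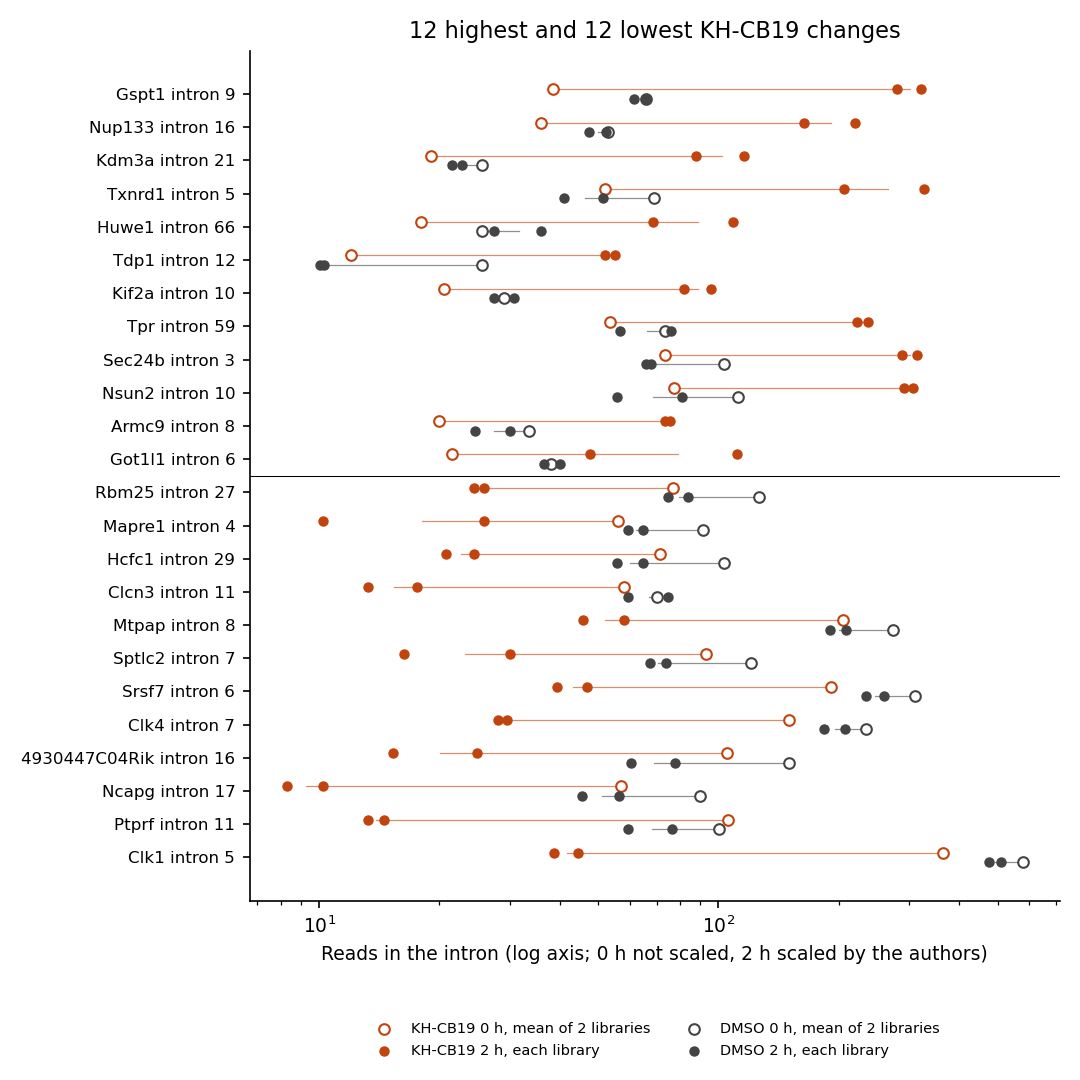
Reads on a log axis for the 12 highest and the 12 lowest introns by KH-CB19 ratio, 1 per gene: open circles are the mean of 2 libraries at 0 h (unscaled), filled circles the 2 libraries at 2 h (scaled by the authors), orange for KH-CB19 and dark grey for DMSO, and a line joins the means. In all 24 introns both orange filled circles lie on 1 side of the orange open circle, from Gspt1 intron 9 at the top (38.5 to 280 and 322 reads) to Clk1 intron 5 at the bottom (364.5 to 38.7 and 44.6). For the 12 lowest introns this was fixed in advance by how far their 2 h means lie below 0 h.

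Gene lists by function are described by their counts and median in KH-CB19, without the change in DMSO subtracted. Over all 2240 ranked introns 136 (6.07%) were higher and 67 (2.99%) lower, with a median of 0.07. An intron below 50 reads at 0 h was ranked only through its 2 h mean, so it could be counted as higher but not as lower. The SR-related proteins and Tra2 genes, which share the arginine-serine domain but are not classical SR proteins, had 1 higher and 0 lower of 38, with a median of 0.00. The higher one was intron 4 of Srrm1, a splicing coactivator, with a mean of 106.0 reads at 0 h and 315 and 356 at 2 h (ratio 1.65, interval 1.42 to 1.88). Intron 8 of Bclaf1 was at the low end with −0.93. Genes of hnRNP and FET proteins, which bind nascent RNA, had 1 higher and 0 lower of 31: intron 4 of Hnrnpu, with a mean of 483.5 reads at 0 h and 884 and 1131 at 2 h, reached 1.04 (0.85 with the lower library alone), and intron 24 of Hnrnpm stood at −0.95.

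Core spliceosome genes had 2 higher and 0 lower of 41, with a median of 0.27. These were intron 15 of Ddx46 (1.1) and intron 28 of Dhx38 (1.04), both of which encode RNA helicases of the spliceosome. With the lower 2 h library alone they stood at 0.76 and 0.87, under 2-fold. Other splicing regulators had 3 higher and 2 lower of 34, with a median of 0.12. At the low end were intron 27 of Rbm25, described among the 12 lowest, and intron 7 of Elavl1, which encodes an RNA stability factor (mean of 116.5 reads at 0 h, 42.8 and 44.6 at 2 h, ratio −1.43), and at the high end was intron 10 of Rbm17 (1.37).

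Genes of cleavage, polyadenylation and the Integrator complex, which form 3′ ends, had 4 higher and 0 lower of 24, with a median of 0.39. Introns 15 and 17 of Cstf3 both stood at 1.38 (intervals 1.00 to 1.76 and 1.02 to 1.76) and intron 13 of Cstf2 at 1.34; both genes encode subunits of the cleavage stimulation factor. In Cstf2 the 2 h libraries held 42.8 and 84.9 reads, and the ratio was 0.76 with the lower one alone. Genes of nonsense-mediated decay and nuclear RNA surveillance had 0 higher and 2 lower of 17, with a median of 0.26: Zcchc7, a subunit of a nuclear polyadenylation complex, at −1.24 in intron 6 (mean of 279.5 reads at 0 h, 90.7 and 149 at 2 h) and Upf3b at −1.01 in intron 8 (interval −1.37 to −0.66). With the higher library alone these were −0.92 and −0.73. The Upf3b intron was also below 0 in DMSO, at −0.46 (interval −0.74 to −0.17), and the difference between treatments was −0.55, under 2-fold.

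Nuclear pore and transport genes had 5 higher of 37 and 1 lower, with a median of 0.11, and 3 of the 5 were introns of Nup133. Chromatin regulators had 5 higher and 1 lower of 48, with a median of 0.12. Besides Kdm3a, intron 18 of Hells, a chromatin remodeller, reached 1.57 and intron 6 of Eed, a Polycomb protein, reached 1.29 (mean of 113.0 reads at 0 h, 304 and 255 at 2 h). The DNA damage response and p53 pathway had 2 higher and 0 lower of 34, in the helicase gene Blm (intron 19, 1.13) and in Xrcc5, which encodes the Ku80 end-binding protein (intron 25, 1.11). With the lower library alone these were 0.95 and 0.96.

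Cell cycle, replication and chromosome genes had 2 higher and 2 lower of 45. The higher introns belonged to Ccnk (intron 8, 1.18), the cyclin of Cdk12 and Cdk13, and to Cdc25a (intron 12, 1.16), a phosphatase that activates cyclin-dependent kinases. Heat shock chaperones had 3 higher and 0 lower of 26, in Tcp1 (1.48), Dnajc7 (1.02) and Hspa14 (1.01). In Tcp1, whose mean was 27.5 reads at 0 h in KH-CB19 and 73.0 in DMSO, the starting level differed more between treatments than in most introns. Genes of ribosomal proteins and translation had 2 higher and 0 lower of 26, Gspt1 and Eif3b (intron 15, 1.03). With the lower library alone Dnajc7 stood at 0.83, Hspa14 at 0.72 and Eif3b at 0.87, all under 2-fold. In DMSO Hspa14 stood at 0.36 (interval −0.02 to 0.74) and Ccnk at 0.32 (interval 0.07 to 0.57). The differences between treatments were 0.65 and 0.85, under 2-fold.

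Motor and cytoskeletal genes had 2 higher and 1 lower of 33, vesicle and membrane trafficking genes 2 and 2 of 24, protein phosphatases 1 and 1 of 16, and genes of O-GlcNAc cycling 0 and 1 of 4. The highest of the motors after Kif2a was intron 44 of Myo10, an unconventional myosin, at 1.72. Intron 16 of Ppp2r5c, a regulatory subunit of protein phosphatase 2A, reached 1.57, and intron 14 of Vps35, a retromer subunit, reached 1.21. The Vps35 intron also stood above 0 in DMSO, at 0.61 (interval 0.21 to 1.01), and the difference between treatments was 0.6, under 2-fold. On the lower side stood intron 21 of Trappc10, a subunit of a vesicle tethering complex, at −1.28 and intron 17 of Gfpt2, an enzyme that makes the sugar precursor of O-GlcNAc, at −1.42. Immediate-early and serum response genes had a single ranked intron, Sgk1 intron 13, at 0.28.

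The labelled cell type could not be checked, because only introns were counted and a gene can be expressed without a detained intron. Of 35 genes on the pluripotency list, 6 had an intron with a 2 h mean. Of the pluripotency network, 6 introns of 5 genes were ranked, all between 0.12 and 0.75 with a median of 0.41. Tfcp2l1 intron 16 (0.43) and Dppa5a intron 4 (0.75) belonged to defining stem cell genes. No intron of the 14 germ layer and trophoblast markers had a 2 h mean. Of the 10 fibroblast markers only Fn1 did, with 5 introns of which 0 passed 2-fold. Fn1 intron 37 had a mean of 363.0 reads at 0 h in KH-CB19, against 113.5 in Tfcp2l1 intron 16 and 43.0 in Dppa5a intron 4.

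**Figure D3:**
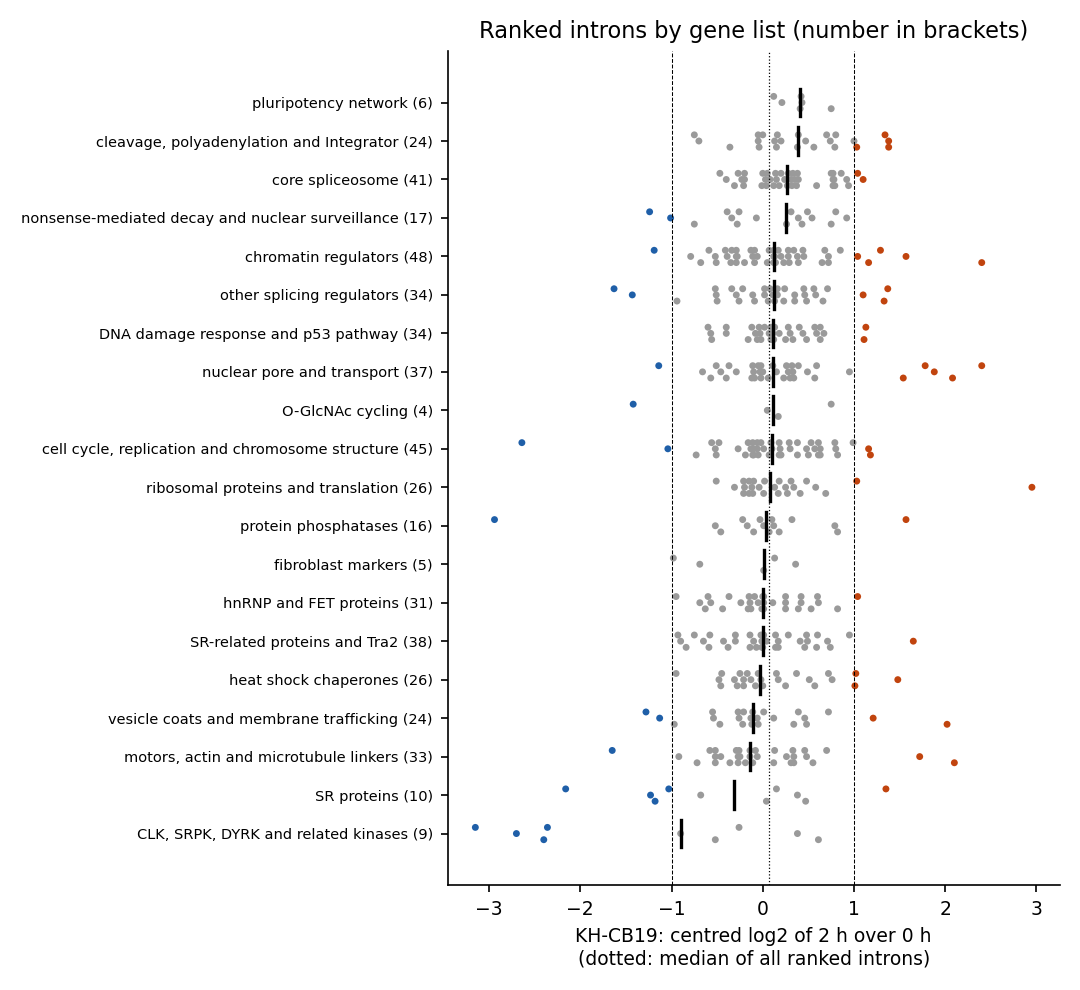
Each point is a ranked intron of a gene list, placed by its centred log2 ratio of 2 h over 0 h in KH-CB19; black bars are list medians, dashed lines mark 2-fold, the dotted line is the median of all 2240 ranked introns (0.07), and colours mark introns at least 2-fold higher (orange) or lower (blue). The kinase list (median −0.90) and the SR protein list (−0.32) lie lowest, and most other lists straddle 0 with members on both sides.

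Introns of 1 gene could be compared with each other in 433 genes with at least 2 ranked introns. In 81 of these at least 1 intron passed 2-fold, and in 0 of them did 1 intron pass upward and another downward. All ranked introns were higher in 5 genes and all were lower in 2, Clk4 and Srsf7. In 52 genes some were higher and the rest were under 2-fold, and in 22 some were lower and the rest under 2-fold. The range between introns of 1 gene was a median of 0.46 on the log2 scale and at least 2-fold in 68 genes.

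Genes with at least 2 introns past 2-fold were chosen after their values were seen. Introns 16, 18 and 19 of Nup133 stood at 2.40, 1.88 and 1.78, while intron 28 stood at 0.34 (interval 0.05 to 0.63). Introns 36 and 38 of Tmem131 stood at 1.32 and 1.03, and its intron 32 at −0.54. All 3 ranked introns of Sltm, a nuclear RNA-binding protein, lay between 1.35 and 1.45, and those of Mtf2, a Polycomb-associated protein, at 1.04, 1.54 and 1.00. Aim2, a sensor of cytosolic DNA, had introns 4 and 6 in the 5′ UTR at 1.78 and 1.85. Introns 10 and 12 of Atp5c1, a subunit of ATP synthase, had ratios of 1.45 and 1.56. With the lower library alone, Mtf2 introns 8 and 22 were at 0.96 and 0.89 and Tmem131 intron 38 at 0.97, under 2-fold.

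In Nol10, introns 12 and 13 were higher (1.15 and 1.5), but the 2 h libraries held 58.1 and 202 reads in intron 13, and the ratio was 0.33 with the lower one alone. Intron 12 was at 0.66 with its lower library alone. Mybl2, which drives transcription of cell cycle genes, had 1 intron past 2-fold between others on the opposite side of 0. Its introns 15, 18 and 28 stood at 0.63, −1.04 and 0.53, with intervals of 0.53 to 0.72, −1.25 to −0.83 and 0.38 to 0.68. These 3 introns had means of 742.5, 296.5 and 309.5 reads at 0 h.

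**Figure D4:**
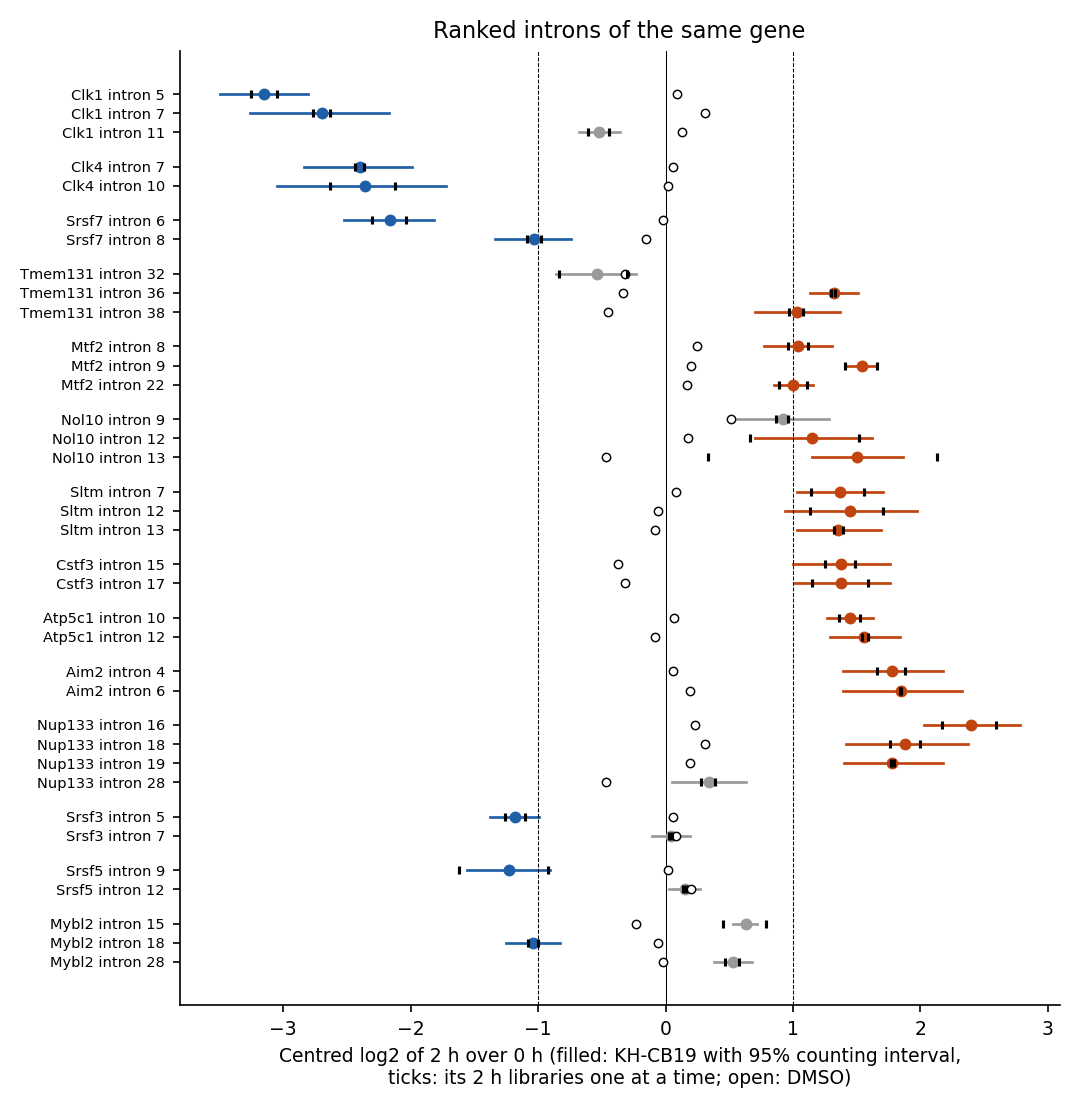
Centred log2 ratios of 2 h over 0 h for every ranked intron of the 11 genes with at least 2 introns past 2-fold in KH-CB19, and of Srsf3, Srsf5 and Mybl2; filled circles are KH-CB19 with the exact 95% counting interval, ticks the ratio with either 2 h library alone, and open circles DMSO. Clk1 intron 11 (−0.52), Nup133 intron 28 (0.34) and Tmem131 intron 32 (−0.54) lie apart from the other introns of their genes.

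Introns that border the same exon were closer in value than introns further apart in the same transcript. Among 138 pairs of ranked introns on either side of 1 exon the median difference was 0.32 on the log2 scale and the correlation 0.65. In 6 pairs both were at least 2-fold higher, in 3 both lower, and in 15 only 1 passed. Among 232 pairs further apart in the same transcript the median difference was 0.49 and the correlation 0.29, with both higher in 3, both lower in 0 and only 1 past 2-fold in 50. These pairs share genes and libraries, and the figures are a description.

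Annotation could be matched by gene and exact length for 3004 of the 3454 introns (87.0%). Among matched introns, 33 of 64 lower ones (51.6%) shared an end with a longer annotated intron of the same gene. The same held for 29 of 126 higher introns (23.0%) and 629 of 1719 introns under 2-fold (36.6%). Such a longer intron can skip an exon or reflect an alternative splice site or terminal exon, and these were not told apart. Lower introns lay wholly inside an annotated exon of the same gene in 12 of 64 (18.8%), higher ones in 10 of 126 (7.94%) and the rest in 251 of 1719 (14.6%). Most introns of every class lay between coding exons (92.9% of higher, 92.2% of lower and 91.0% of the rest).

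The median length was 1853 bp for higher, 2760 bp for lower and 2025 bp for the remaining introns, with wide quartiles (1136 to 2960, 1489 to 3900 and 972 to 3511 bp). Letters were available for few of them: 10 higher, 12 lower and 251 others. Of these, 4 of 10, 0 of 12 and 28 of 251 began with GTAAGT, and 9 of 10, 6 of 12 and 167 of 251 had a G at intron position 5. For the higher side, Tpr intron 59 and Zfp330 intron 2 are shown as examples of that start, chosen after their letters were seen, with intron bases in capitals.
Tpr intron 59, 5′ end: tagGTAAGT
Zfp330 intron 2, 5′ end: gtgGTAAGT
Tpr intron 59, 3′ end: TGTCTTGATGCTTTCTGTAGata
Zfp330 intron 2, 3′ end: TATACATTCTTTTTAATCAGgga

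The GC content of introns with letters was a median of 39.8% for higher, 35.4% for lower and 47.9% for the others. Letters came only from introns that some annotated transcript retains in full, so these shares describe a selected subset.

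The share of higher introns differed with the number of reads, in part through the read minimum. By the DMSO mean at 0 h, which the ratio does not use, introns below 50 reads had 40 of 113 higher (35.4%) and 0 lower. From 50 to 100 reads 59 of 896 were higher (6.58%) and 23 lower (2.57%), from 100 to 200 reads 24 (3.32%) and 30 (4.16%) of 722, and from 200 reads 13 (2.55%) and 14 (2.75%) of 509. An intron with fewer than 50 reads at 0 h entered the ranking only through its 2 h mean, so it leaned upward by construction. Of the higher introns, 39 of the 40 in the first class and 37 of the 59 in the second had a KH-CB19 mean below 50 reads at 0 h, so the shares of both classes carry that choice; 0 did in the other 2 classes.

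The starting level entered the ratio too. At 0 h the centred log2 ratio of KH-CB19 to DMSO had a median of −0.14 over the higher introns, 0.05 over the lower ones and 0.02 over the rest. It was −0.5 or less in 13 of the 136 higher introns, against 27 of the 2037 under 2-fold, and 0.5 or more in 4 of the 67 lower ones, against 109 of the 2037. Of the 136 higher introns 98 were ranked in DMSO too and 38 were not, while all 67 lower ones were. With the change in DMSO subtracted, 75 of the 98 and 54 of the 67 were still past 2-fold.

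For some introns the comparison with 0 h and the authors' comparison of KH-CB19 with DMSO at 2 h gave unlike values. The 2 comparisons share the KH-CB19 libraries at 2 h. The gap between them takes in the centred 0 h ratio of KH-CB19 to DMSO and the change in DMSO. In the introns of Tcp1, Rbm17 and Got1l1 below, the first was −1.04, −0.55 and −0.46 and the second −0.18, 0.29 and 0.33. In Gspt1 intron 9 they were −0.41 and 0.27. Tcp1 intron 10 stood at 1.48 here, and the authors' deposited table gave a log2 ratio of 0.59 with an adjusted p of 0.256. Rbm17 intron 10 stood at 1.37, and the authors' deposited table gave 0.50 with an adjusted p of 0.289. Got1l1 intron 6 stood at 1.87, and the authors' deposited table gave 1.05 with an adjusted p of 0.499. For Clk1 intron 5, Gspt1 intron 9 and Srsf7 intron 6 the authors' deposited table gave −3.56, 2.24 and −2.52, beside −3.15, 2.95 and −2.16 against 0 h.

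The DMSO reference had its own extremes, in other genes. The lowest were Strn3 intron 10 (−1.48), Ppp4c intron 15 (−1.32), Kpnb1 intron 30 (−1.20) and C1qbp intron 7 (−1.18). In C1qbp the DMSO mean was 383.0 reads at 0 h, with 118 and 154 at 2 h, whereas KH-CB19 had 148.0 at 0 h and 207 and 285 at 2 h, so the DMSO 0 h mean stood above the other values. The highest were Macf1 intron 94 (1.08), Hyou1 intron 2 (0.99), Nucks1 intron 8 (0.98) and Prune2 intron 5 (0.97). None of these 8 introns that was ranked in KH-CB19 passed 2-fold there. Macf1 intron 94, below the minimum in KH-CB19, stood at −1.18, and it and Strn3 intron 10 were among the 3 introns whose 2 h means could not be split into whole counts, so their values are uncertain.

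Of the 3423 introns, 1183 did not reach 50 reads at either time, and 28 of them were at least 2-fold higher and 89 at least 2-fold lower. The 5 introns just inside the minimum all had 50 reads and ratios of −0.62 to −0.20, and the 5 just outside had 49.8 to 49.9 reads and ratios of 0.02 to 0.95. A further 31 introns had a KH-CB19 mean at 2 h, of 1.54 to 31.3 reads, and no number at 0 h. Over the 3422 introns with all 4 means, the means summed to 362147 reads in KH-CB19 at 0 h, 391918 at 2 h, 457561 in DMSO at 0 h and 368739 at 2 h, and RNA integrity numbers were 8.8 to 9.4. Reads in introns alone cannot tell a change in splicing from a change in the amount of the transcript.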

How the data were processed

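Per the submitters' processing notes, reads of 8 stranded libraries were placed on mm9, and the tools were TopHat2 2.0.9 and Bowtie 1.0.0, DESeq, Cufflinks 2.1.1, bedtools 2.17.0 and SAMtools 0.1.19. How detained introns were chosen is not given in the sources used here. Group means only were used: the authors deposited mean counts at 0 h, all multiples of 0.5 and therefore unscaled, and at 2 h a normalised mean, a signal scaled by size factors. The deposited table also gives the authors' log2 ratio of KH-CB19 to DMSO at 2 h and its adjusted p-value, taken to be from DESeq.

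Each 2 h mean is the average of 2 whole counts, each divided by its size factor. Solving for these (KH-CB19 0.9816 and 0.9653, DMSO 1.0956 and 0.9749) split 3451 of 3454 means (99.91%) uniquely within 1e-06 reads, a step tested on simulated data. The 0 h means could not be split, so the count model planned for separate libraries was not run, and the planned fallback was used: centred log2 ratios, a 2-fold threshold, a minimum of 50 reads and exact 95% counting intervals from the summed counts. Depth is known only as reads in these introns. Introns were matched to GENCODE M21 (GRCm38) by symbol, chromosome, strand and exact length, and the distance between builds was the same for all matched introns in 617 of 620 genes with at least 2. Sequences were read from M21 transcripts that run through the whole intron. The members, the 22 gene lists and the rule for named introns were chosen with earlier results of these data known. The rule took the 12 highest and 12 lowest KH-CB19 ratios (1 intron per gene), the 4 highest and lowest in DMSO and in the difference, every Clk intron, and the largest ratios of each list, 3 at most. Introns outside it were chosen after their values were seen. Alternatives changed the centring, minimum, pseudocount, threshold, unit and 2 h library. Python 3.11.15, pandas 2.3.3, numpy 2.4.6 and scipy 1.17.1 were used.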

Additional observations from a re-analysis of the deposited data

Results flagged for a closer look

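In 4 introns both KH-CB19 libraries at 2 h were more than 1.5-fold above the 0 h mean and both DMSO libraries more than 1.5-fold below it, after centring, so that the treatments moved in opposite directions; the difference was not tested. Zfp384 intron 11 had the widest difference, 2.05 on the log2 scale: KH-CB19 went from a mean of 25.5 reads to 68.3 and 50.8, and DMSO from 55.5 to 29.2 and 20.5. Usp11 intron 13 differed by 1.96, with KH-CB19 going from 39.5 to 102 and 87.0 and DMSO from 61.5 to 29.2 and 30.8. Cyp20a1 intron 10 differed by 1.86, from 43.0 to 71.3 and 106 in KH-CB19 and from 61.5 to 25.6 and 29.7 in DMSO. Usp37 intron 3 differed by 1.56, from 36.5 to 59.1 and 63.2 in KH-CB19 and from 55.0 to 22.8 and 26.7 in DMSO. In all 4 the DMSO mean at 0 h was above the KH-CB19 mean at 0 h, but these means are unscaled. DMSO also had more reads at 0 h summed over the 3422 introns with all means, 457560.5 against 362147. Once centred, the 0 h gap (KH-CB19 minus DMSO, log2 scale) was −0.76 in Zfp384, −0.27 in Usp11 and −0.15 in Cyp20a1.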

How the results depend on the processing

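Each count of introns at least 2-fold higher or lower was computed again under 14 alternatives, and the text gives the values that moved by more than 1.5 times from 136 and 67 in KH-CB19, 1 and 5 in DMSO and 135 and 80 in the difference (higher first). Without centring, DMSO had 0 and 24 and the difference 308 and 30. With a minimum of 20 reads, 140 introns were lower in KH-CB19, DMSO had 2 and 15, and the difference 217 and 165. With no minimum these were 156, then 2 and 19, then 227 and 186. A minimum of 100 reads left 84 and 29 in KH-CB19, 0 and 3 in DMSO and 53 and 34 in the difference, and 50 reads at both times left 60 and 19, then 2 lower in DMSO, then 73 and 26. A pseudocount of 10 left 39 lower in KH-CB19, 0 higher in DMSO and 50 lower in the difference. At 3-fold, 24 and 14 remained past the threshold in KH-CB19, 0 and 0 in DMSO and 25 and 14 in the difference. With 1 value per gene, 81 and 44 genes passed in KH-CB19, 0 and 2 in DMSO, and 73 were higher in the difference.

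With either 2 h library left out of each treatment, KH-CB19 had 125 to 171 higher and 80 to 90 lower introns, DMSO 0 to 5 higher and 5 to 9 lower, and the difference 131 to 176 higher and 84 to 115 lower. Without the 3 introns that could not be split, an alternative chosen after seeing the data, 0 introns were higher in DMSO. Fewer introns can pass a higher minimum or threshold, and the cause of the other shifts was not tested. For the 86 named introns, 916 of 942 values under the alternatives moved by no more than the distance from the middle of their counting interval to its end. Among those past 2-fold, 0 changed sign. Part of that count was fixed in advance, because a change of read minimum cannot move the ratio of an intron. The changes of centring moved every KH-CB19 ratio by only −0.07, −0.1 or 0.02. Named introns that could not be split had no interval and were still counted as unmoved. The count is therefore weak evidence that the ratios are stable. No paired analysis was possible because the deposited values are group means and the libraries recovered at 2 h carry no replicate number. Depth limits introns with few reads at 0 h most, and reads per whole library are not known.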
